A study of Mus musculus with 9 samples.

Results

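Open chromatin called in monocyte-derived peritoneal macrophages alone, and lying between genes, made up 4865 regions. Peaks of 3 merged ATAC-seq peak lists were joined wherever they overlapped by at least 1 bp, which gave 36843 regions. A region was kept if it held peaks of the monocyte-derived list and of neither other list, overlapped no protein-coding gene body, and lay more than 1 kb from every start and end of a protein-coding gene (RefSeq, GRCm38.p6). Of all regions, 14557 (39.5%) were monocyte-derived only. Of the 9989 regions of any list outside genes, the 4865 made up 48.7%. Near gene ends the monocyte-derived-only share was 26.0%, and inside genes 46.6%. The regions were selected on these peak calls, so the shares are a description with no test.

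The lists came from peritoneal macrophages purified by flow cytometric sorting, with 9 samples in 3 groups of 3. All mice were Cx3cr1CreERT2-IRES-EYFP/+ Rosa26-stopfl-tdTomato/+, in which a tamoxifen-inducible Cre expressed from Cx3cr1 switches on a red reporter. All received IL-4 complexes (5 µg IL-4 with 25 µg anti-IL4) every other day from 4 days before harvest, so every group was exposed to the cytokine of alternative activation. Mice of the monocyte-derived group had 2 ml thioglycollate, which recruits blood monocytes to the cavity, and were harvested at day 4. Mice of the converted group had 2 ml thioglycollate and a tamoxifen diet for 8 weeks, and for the resident group the labels name no treatment beyond IL-4. Cell origin, thioglycollate, tamoxifen and time since recruitment therefore cannot be told apart. The converted and resident lists are called the tissue lists here. Each group has 1 merged list with no read counts, so no value below has a replicate spread, depth is unknown, and an absent call may be a closed site or a missed one. Intervals are 95% Wilson intervals for shares and Newcombe intervals for differences, which cover counting error over regions only.

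ATAC-seq marks DNA that the Tn5 transposase can reach, mostly promoters and enhancers. Enhancers lie largely between or within genes and are opened by transcription factors. In macrophages PU.1 and C/EBP factors set the enhancer repertoire of the lineage, while signal-dependent factors such as AP-1 and NF-kappaB open further sites during recruitment and inflammation. The gene an enhancer acts on need not be the nearest, so a region is placed below at its nearest gene end as an address only.

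Sequence could be read where a region fell in the promoter window of a long non-coding RNA (lncRNA) gene, taken by RefSeq from 250 bases before to 50 after its start. In all, 96 of the 4865 regions (1.97%, 1.62 to 2.40%) reached into such a window, against 100 of 1708 outside-gene regions called in all 3 lists (5.85%, 4.84 to 7.07%). The 94 windows with a monocyte-derived-only region held the AP-1 site TGANTCA in 19 cases (20.2%, 13.3 to 29.4%). Windows with an outside-gene region of all 3 lists held it in 10 of 110 (9.09%, 5.01 to 15.9%), and all 11573 lncRNA windows in 9.31%. The difference from the shared windows was 11.1 percentage points (1.43 to 21.2). Some windows overlap and share a site, and with overlapping windows joined it was 10.6 points (0.402 to 21.0), from 18 of 90 against 9 of 96, a setting chosen after seeing the data. Against the wider set of 178 windows with an outside-gene region of the monocyte-derived list and at least 1 tissue list (11.8%), the difference was 8.42 points (-0.428 to 18.4), an interval that includes 0. The 35 windows with a region of the tissue lists only lay between, at 14.3% (6.26 to 29.4%), so their interval covers both values. The 19 matches stand at 18 distinct places, and 12 of the 18 (66.7%) lay within the open regions themselves, which covered 37.9% of the distinct bases of these windows. This was not particular to AP-1, since 17 of 25 RUNX sites (68%), 16 of 27 KLF sites (59.3%) and 14 of 25 PU.1 sites (56%) also did. Of the 41 regions that lay wholly inside a window, 1 held an AP-1 site, against 8 each for PU.1, RUNX and KLF and 5 for NF-kappaB. The stretches below show 7 of those 12 and were picked after their values were seen. They are given 5′ to 3′ on the plus strand of GRCm38.p6, as the part of the region inside the window, with the AP-1 site in capitals. Their places are chr10:93336189-93336260 for Gm17745, chr17:5798407-5798588 for 3300005D01Rik, chr1:85775164-85775288 for 9930111H07Rik, chr7:75822389-75822587 for Gm51489, chr12:8511039-8511213 for 5033421B08Rik, chr1:191224414-191224503 for D730003I15Rik and chr4:95094689-95094862 for Junos.
Gm17745: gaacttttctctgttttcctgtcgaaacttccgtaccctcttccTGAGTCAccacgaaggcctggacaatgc
3300005D01Rik: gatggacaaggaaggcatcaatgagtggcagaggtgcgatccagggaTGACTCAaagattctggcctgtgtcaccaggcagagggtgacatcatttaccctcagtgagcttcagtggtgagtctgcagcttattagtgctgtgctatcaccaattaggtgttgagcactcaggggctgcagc
9930111H07Rik: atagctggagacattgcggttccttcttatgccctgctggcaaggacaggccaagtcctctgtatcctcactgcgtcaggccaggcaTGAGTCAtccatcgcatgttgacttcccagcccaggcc
Gm51489: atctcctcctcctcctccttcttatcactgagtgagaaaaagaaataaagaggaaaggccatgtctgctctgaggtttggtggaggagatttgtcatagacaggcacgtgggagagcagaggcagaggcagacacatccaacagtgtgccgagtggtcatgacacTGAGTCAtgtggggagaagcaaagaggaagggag
5033421B08Rik: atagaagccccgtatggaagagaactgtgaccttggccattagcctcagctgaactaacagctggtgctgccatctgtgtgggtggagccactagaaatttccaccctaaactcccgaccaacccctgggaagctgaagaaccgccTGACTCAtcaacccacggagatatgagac
D730003I15Rik: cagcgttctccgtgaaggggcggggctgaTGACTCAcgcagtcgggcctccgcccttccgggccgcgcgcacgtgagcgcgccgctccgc
Junos: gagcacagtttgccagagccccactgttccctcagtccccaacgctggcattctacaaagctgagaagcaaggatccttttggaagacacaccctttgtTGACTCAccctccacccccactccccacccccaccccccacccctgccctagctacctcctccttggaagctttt

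Gm17745 had the smallest deposited p of the 12, at 7.44e-09, and lies 25.0 kb from Elk3, an ETS factor gene. Junos is the lncRNA beside Jun, an AP-1 subunit gene, and its region lay 42.5 kb from Jun with a p of 5.24e-06. D730003I15Rik lies 41.1 kb from Atf3, which encodes a further AP-1 family factor, and its region had a p of 4.52e-06. 5033421B08Rik lies 11.0 kb from Rhob, a small GTPase gene, with a p of 1.50e-06. The other 3 lie 42.7 kb from Snx9, a membrane trafficking gene (3300005D01Rik), 18.2 kb from Cab39 (9930111H07Rik) and 25.7 kb from Klhl25 (Gm51489). A match shows only that the letters are present.

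The other 7 motifs searched, on both strands and with overlaps between motifs allowed, differed less from the shared windows. The PU.1 core GAGGAAG stood in 25.5% of windows with a monocyte-derived-only region, 24.5% of windows with a region of all 3 lists and 13.7% of all lncRNA windows. NF-kappaB (GGGANNNNCC) stood in 27.7%, 22.7% and 16.5%, RUNX (TGTGGT) in 24.5%, 20.9% and 20.1%, and KLF (GGGNGTGG) in 24.5%, 21.8% and 14.3%. C/EBP (TTGCNNAA) stood in 14.9% and 17.3% of the first 2 sets, IRF (GAAANNGAAA) in 5.32% and 6.36%, and MEF2 (CTANNNNTAG) in 3.19% and 2.73%. AP-1 was the only one of the 8 whose interval for the difference from the shared windows excluded 0, with no adjustment for the number of motifs, and against the wider set of 178 windows no such AP-1 difference was shown. PU.1, NF-kappaB and KLF sites were more frequent than over all lncRNA windows both here and in the shared set. The motifs were chosen after the lists had been seen. Base composition was close between the first 2 sets, with a median GC content of 54% here and 55.3% in the shared windows. Over all lncRNA windows it was lower, at 48.3%, so the comparison with all windows is not matched for base composition.

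**Figure D1:**
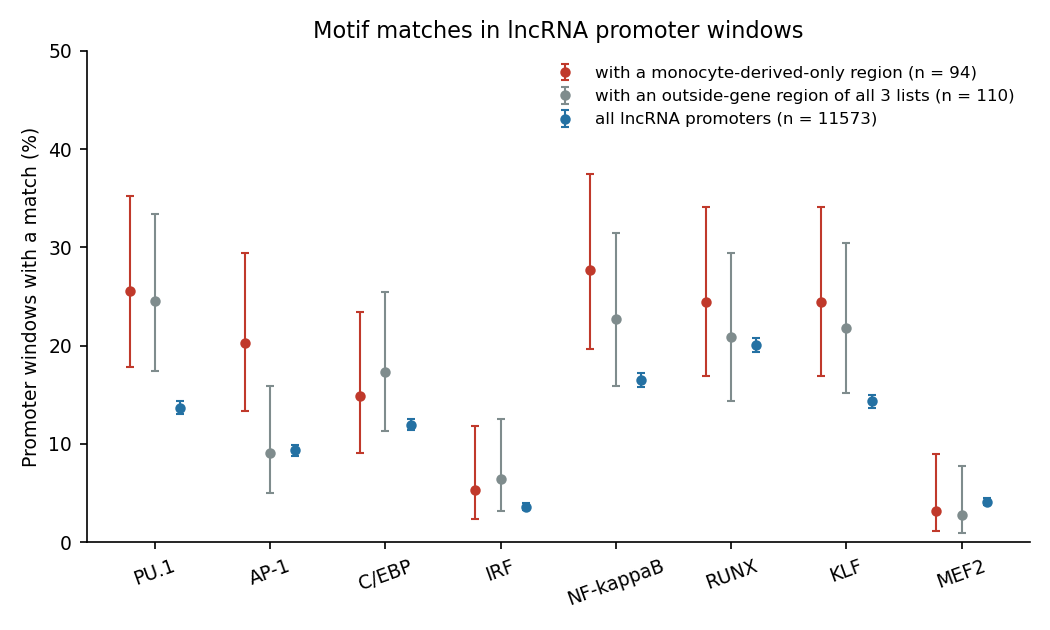
Share of lncRNA promoter windows with a match to each of 8 motifs (y axis, percent; bars are 95% Wilson intervals), for windows with a monocyte-derived-only region (red), with an outside-gene region of all 3 lists (grey) and for all lncRNA windows (blue). The red and grey points lie closest for MEF2, at 3.19% against 2.73%, and furthest apart for AP-1, at 20.2% against 9.09%.

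Regions also stood beside microRNA genes. Within 5 kb of 38 of 1005 hairpins (3.78%, 2.77 to 5.15%) lay at least 1 monocyte-derived-only region, 32 regions in all. The 1708 outside-gene regions of all 3 lists reached 16 hairpins (1.59%) and the 1803 of the tissue lists only reached 15 (1.49%), from fewer regions. Relative to their number, the monocyte-derived-only regions reached no more hairpins than either of these classes. The 3321 outside-gene regions of the monocyte-derived list and at least 1 tissue list reached 21 (2.09%), fewer relative to their number. The loci shown here, for their small p or their known place in blood cells, are the cluster of Mir23a, Mir27a and Mir24-2, both clusters of the miR-29 family, Mir322 with Mir503, and Mir142 and Mir146b as single hairpins. Mature RefSeq sequences follow 5′ to 3′, with the seed (bases 2 to 8) in capitals.
miR-29a-3p: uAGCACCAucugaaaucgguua
miR-29b-3p: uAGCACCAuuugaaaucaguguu
miR-29c-3p: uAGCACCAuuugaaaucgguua
miR-322-5p: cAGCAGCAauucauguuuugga
miR-503-5p: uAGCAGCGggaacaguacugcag
miR-23a-3p: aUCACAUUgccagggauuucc
miR-27a-3p: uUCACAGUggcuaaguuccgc
miR-24-3p: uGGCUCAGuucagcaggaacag
miR-142a-3p: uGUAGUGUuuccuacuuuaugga
miR-146b-5p: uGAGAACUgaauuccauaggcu

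The miR-29 family is encoded at 2 places, and both had a region upstream. At Mir29a and Mir29b-1 it was chr6:31065514-31065638 (p 7.44e-09), 2.42 kb upstream of Mir29b-1, and at Mir29b-2 and Mir29c it was chr1:195034039-195034188 (p 2.07e-07), 2.85 kb upstream of Mir29b-2. No region of all 3 lists lay within 5 kb of either, though 2 regions of any class lay within 5 kb of Mir29b-2. The miR-29 members share the seed AGCACCA and are known to act on collagen transcripts. The cluster of Mir23a, Mir27a and Mir24-2, which is expressed in myeloid cells, had a 175 bp region at chr8:84207889-84208063 (p 7.44e-09), 0.455 kb upstream of Mir23a. Another of 350 bp lay 4.73 kb upstream of Mir23a (p 4.13e-06). Of any class 3 regions lay within 5 kb of Mir23a, and again none was of all 3 lists. Mir322 and Mir503, whose seeds differ in the last base, had chrX:53057189-53057313 (p 7.44e-09), 2.84 kb upstream of Mir322. Mir146b, which dampens Toll-like receptor signalling, had a 75 bp region 1.75 kb upstream (p 4.13e-06), among 3 regions of any class within 5 kb, none of all 3 lists. Mir142, a microRNA gene of blood cells, had a 150 bp region 0.126 kb upstream (p 6.73e-06), where 1 region of all 3 lists also lay within 5 kb.

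The regions were short and mostly weak calls. Together they covered 700.8 kb. Median width was 125 bp (range 75 to 600), against 250 bp for the 1708 outside-gene regions of all 3 lists, each of which joins at least 3 peaks. Outside-gene regions of 1 tissue list alone were shorter still, with medians of 75 bp for resident only and 100 bp for converted only. The median of the deposited p was 4.13e-06, and 104 regions (2.14%, 1.77 to 2.58%) reached the smallest p in the list, 1e-12. Of the shared outside-gene regions 659 (38.6%, 36.3 to 40.9%) did so. Of monocyte-derived-only regions inside genes 1.99% reached that p, a difference of 0.152 points (-0.379 to 0.701) that includes 0, while of those near gene ends 0.958% did, 1.18 points fewer (0.650 to 1.70). At the weak end, 255 regions (5.24%) had a p of 1.01e-05, just above the value in the name of the lists. The p-values are the authors' own and rank peaks within the list only.

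**Figure D2:**
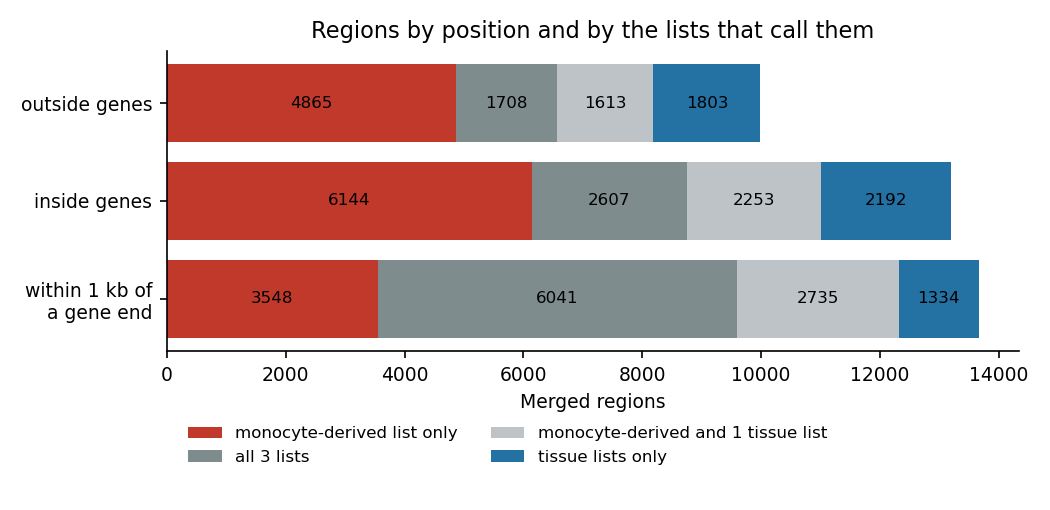
Numbers of merged regions (x axis) by position relative to protein-coding genes and by the lists that call them. Outside genes the monocyte-derived-only class (red) is the largest with 4865 regions, and within 1 kb of a gene end the regions of all 3 lists (dark grey) are, with 6041.

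The place of a region in the genome gave few contrasts with shared regions. The median distance to a gene end was 22.7 kb (quartiles 7.63 and 63.7, highest 1812), against 26.3 kb for outside-gene regions of all 3 lists and 31.9 kb for those of the tissue lists only. Within 10 kb of a gene end lay 30.8% (29.5 to 32.1%), against 24.8% (22.8 to 26.9%) and 24.1%. Over 50 kb away lay 30.7%, close to the shared 31.3%, while for the tissue-only class it was 40.3%. Where the nearest gene had a known strand, 2152 of 3761 regions (57.2%, 55.6 to 58.8%) lay on its 5′ side. This exceeded regions of all 3 lists (51.0%) by 6.24 points (3.13 to 9.35), but regions of the monocyte-derived and resident lists stood at 56.5% (53.5 to 59.5%). The 5′ side was thus not a mark of monocyte-derived-only regions alone. By chromosome, the monocyte-derived-only share of outside-gene regions ran from 42.3% on chromosome 16 to 57.2% on X.

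**Figure D3:**
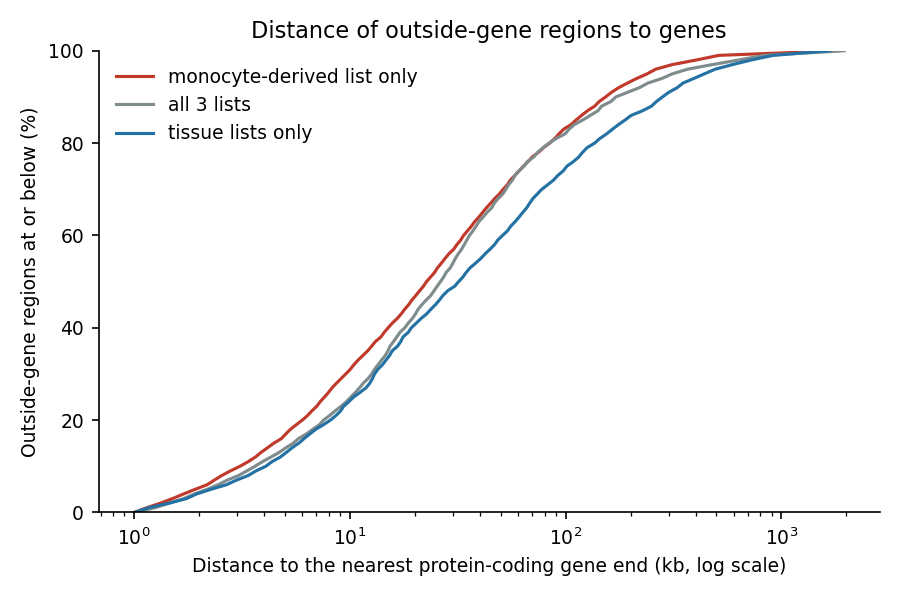
Cumulative share of outside-gene regions (y axis, percent) by distance to the nearest protein-coding gene end (x axis, kb, log scale) for 3 classes of calls. The red curve lies above the others up to about 58 kb, where it meets that of all 3 lists, and the tissue-only curve (blue) lies lowest beyond about 10 kb.

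Many regions stood near another open site. A tissue-list region lay within 10 kb of 42.6% of them (41.2 to 44.0%) and within 1 kb of 14.1%, while 9.25% had none within 100 kb. For outside-gene regions of all 3 lists, the share with another tissue-list region within 10 kb was 54.4%. At the margin of the rule, 81 regions had a tissue-list region at most 25 bp away, the step of the peak grid, and 45 of these touched it end to end. In turn 39 outside-gene regions counted as shared through an overlap of 25 bp. At the gene margin, 32 regions lay 1001 to 1100 bp from a gene end with a median p of 3.38e-06, and 31 monocyte-derived-only regions 902 to 997 bp away, with 4.52e-06, were left out. Another of the 4865 lay within 10 kb for 2122 (43.6%, 42.2 to 45.0%). Joined at gaps of at most 12500 bp they formed 3521 groups. Of these, 2588 were single regions and 267 held 3 or more, with 945 regions (19.4%).

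The largest group was inside a non-coding gene. Firre, an lncRNA gene of the X chromosome known for a role in nuclear organisation, held 11 regions of 75 to 225 bp, 10 of them in 23.5 kb (chrX:50599864-50623363). No tissue-list region lay outside genes within Firre, and its smallest p was 2.07e-07. The nearest coding gene, Olfr1324, lies 150 kb or more from all of them and is an odorant receptor gene. In all, 1016 regions (20.9%) overlapped an lncRNA gene body, against 25.2% of outside-gene regions of all 3 lists and 19.7% of the tissue-only class. Gm31718, near Tomm20, held 10 of 16 outside-gene regions, LOC108167736 held 9 of 11, and Gm40527, between Igdcc3 and Parp16, held 6 of 6. Beyond lncRNAs, 28 regions lay on 28 tRNA genes (0.576%, 0.399 to 0.831%), against 6 of 1708 shared outside-gene regions (0.351%) and 0 of 1803 tissue-only ones (upper bound 0.213%). The difference from shared regions, 0.224 points (-0.225 to 0.542), includes 0. Genes outside the coding set were looked at after the regions had been seen. Further groups of 8 stood near Cebpb and between Ankdd1a and Plekho2, groups of 7 near Lilrb4a and Chic2, and groups of 6 near 2410004B18Rik, Tomm20 and Dusp6 and between D630003M21Rik and Tgm2. The group near 2410004B18Rik had 2 regions at 1e-12 and no tissue-list region in its 14.2 kb.

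By nearest gene end the regions fell to 2583 of 21631 protein-coding genes (11.9%), and 1518 of these had exactly 1. A further 149 genes (0.689%) had 5 or more and together held 1019 regions (20.9%). Intervals between genes differ widely in size, so each count is given beside all outside-gene regions of that gene. Klf6, a zinc finger factor gene of macrophage activation, had the most, with 19 of its 31 outside-gene regions, and 3 of all 3 lists. Cited2, a transcriptional coregulator gene, had 18 of 22. They spread over 25.0 kb to 1426 kb from the gene, in an interval without coding genes of 2952 kb. Tomm20, of the mitochondrial import machinery, and Marcks, a protein kinase C substrate gene of cell motility, had 15 each, of 22 and 21. Atp2b1, a plasma membrane calcium pump gene (14 of 26), Btg1, an antiproliferative factor gene (13 of 23), Adgrl2, an adhesion receptor gene (13 of 27), and Gm826 (13 of 32) followed. Cebpb, Tlr4, Rap2b, Tet2 and Dusp6 had 12 each, of 16, 13, 18, 15 and 20. Tet2 encodes a DNA demethylation enzyme and Dusp6 a phosphatase of ERK kinases. Eea1, an early endosome gene, and Olfr1324 had 11. At 23 of the 149 genes no tissue-list region lay outside genes. With every list cut to the 15552 strongest peaks, the order changed: Klf6 and Adgrl2 had 9 each, Atp2b1 and Btg1 8, Cited2 and Cebpb 7, Marcks 5 and Tomm20 4.

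**Figure D4:**
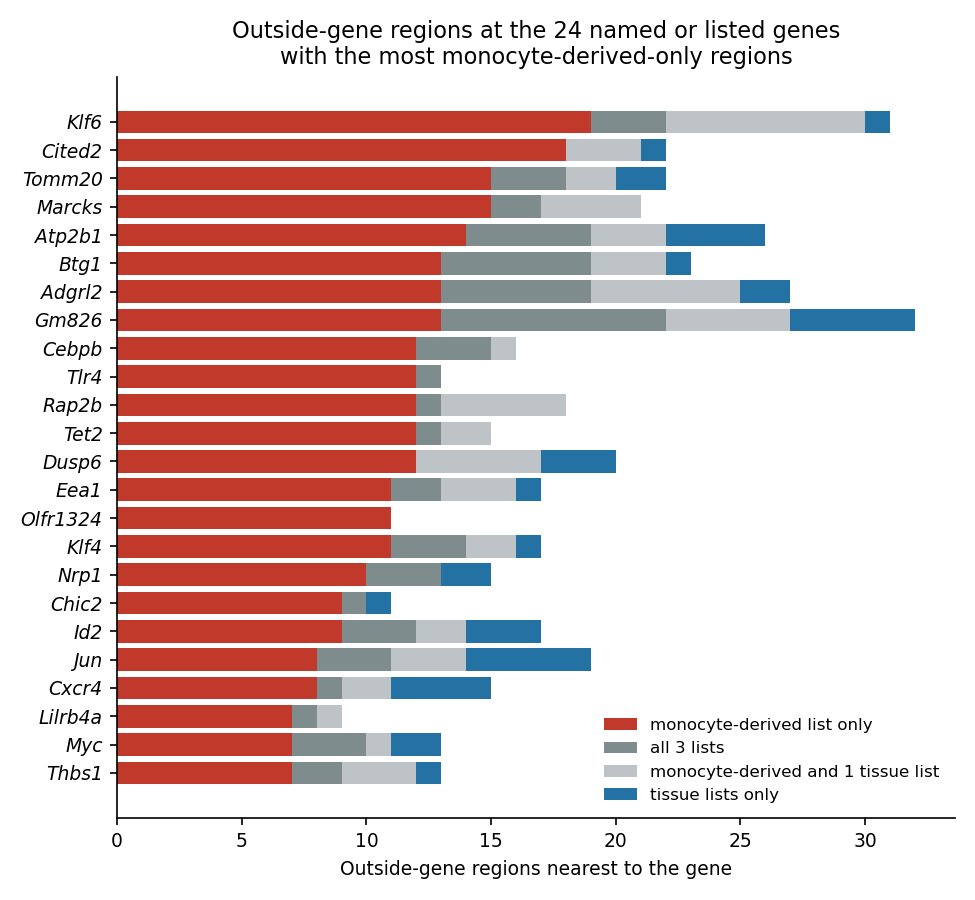
Outside-gene regions by nearest gene end (x axis, number) for the 24 named or listed genes with the most monocyte-derived-only regions (red), beside regions of all 3 lists, of the monocyte-derived and 1 tissue list, and of the tissue lists only (blue). Klf6 has 19 of 31, Tlr4 12 of 13, and Olfr1324 has red regions alone.

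Macrophage lineage and enhancer factors had regions at 22 of 30 genes, 93 in all, against 11.9% of all genes. These genes also carried shared sites, with outside-gene regions of all 3 lists at 13 of 30, against 5.58% of all genes. The monocyte-derived-only class made up 54.7% of the outside-gene regions of this list, near the 48.7% of all genes, so the list holds many open sites of every class. Cebpb, which encodes a C/EBP factor of myeloid activation, had 12 of 16, all on its 3′ side at 7.56 to 87.4 kb. Of these, 8 formed a group of 35.4 kb (chr2:167742614-167778038) around 2 regions of all 3 lists, both at a p of 1e-12 in the monocyte-derived list. The strongest of the 8 was chr2:167765164-167765313, at 7.44e-09. Id2, an inhibitor of basic helix-loop-helix factors, had 9 of 17, of which 6 stood within lncRNA Gm36287. Zeb2, which encodes a factor of macrophage identity, had 7 of 14, and 2 of these were at 1e-12 (chr2:44956289-44956538 and chr2:45246539-45246913). Maf and Mef2c had 5 each, of 7 and 14, and the Mef2c regions lay 428 kb or more from the gene. Cebpa had 3 of 3, Tfec, of the MITF family, 4 of 4 and Runx1 4 of 5. Spi1, the PU.1 gene, had 1, a 100 bp region 1.04 kb from the gene (p 3.02e-06). At Klf6, 2 of the 19 were at 1e-12, one 23.8 kb and one 246 kb from the gene on the 5′ side. With equal list lengths 19 of the 30 genes had a region, Cebpb with 7, Zeb2 with 4 and Id2 with 2.

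Among AP-1 and immediate early factors 13 of 22 genes had regions, against 11.9% of all genes. The monocyte-derived-only class made up 46.7% of the list's 75 outside-gene regions, against 48.7% over all genes. Jun had 8 of 19, all on its 5′ side, and the strongest, chr4:95128064-95128188, lay 75.8 kb away at 7.44e-09. Atf3 and Ier3 had 5 each, of 7 and 6, Ier5 had 4 of 12 and Fos 3 of 6. Batf3, an AP-1 family factor gene, had a region of 375 bp at 1e-12 (chr1:191111139-191111513), 2196 bp from the gene. No region was nearest to Junb, Jund, Fosl1 or Egr1. With equal list lengths 6 of the 22 genes had a region.

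**Figure D5:**
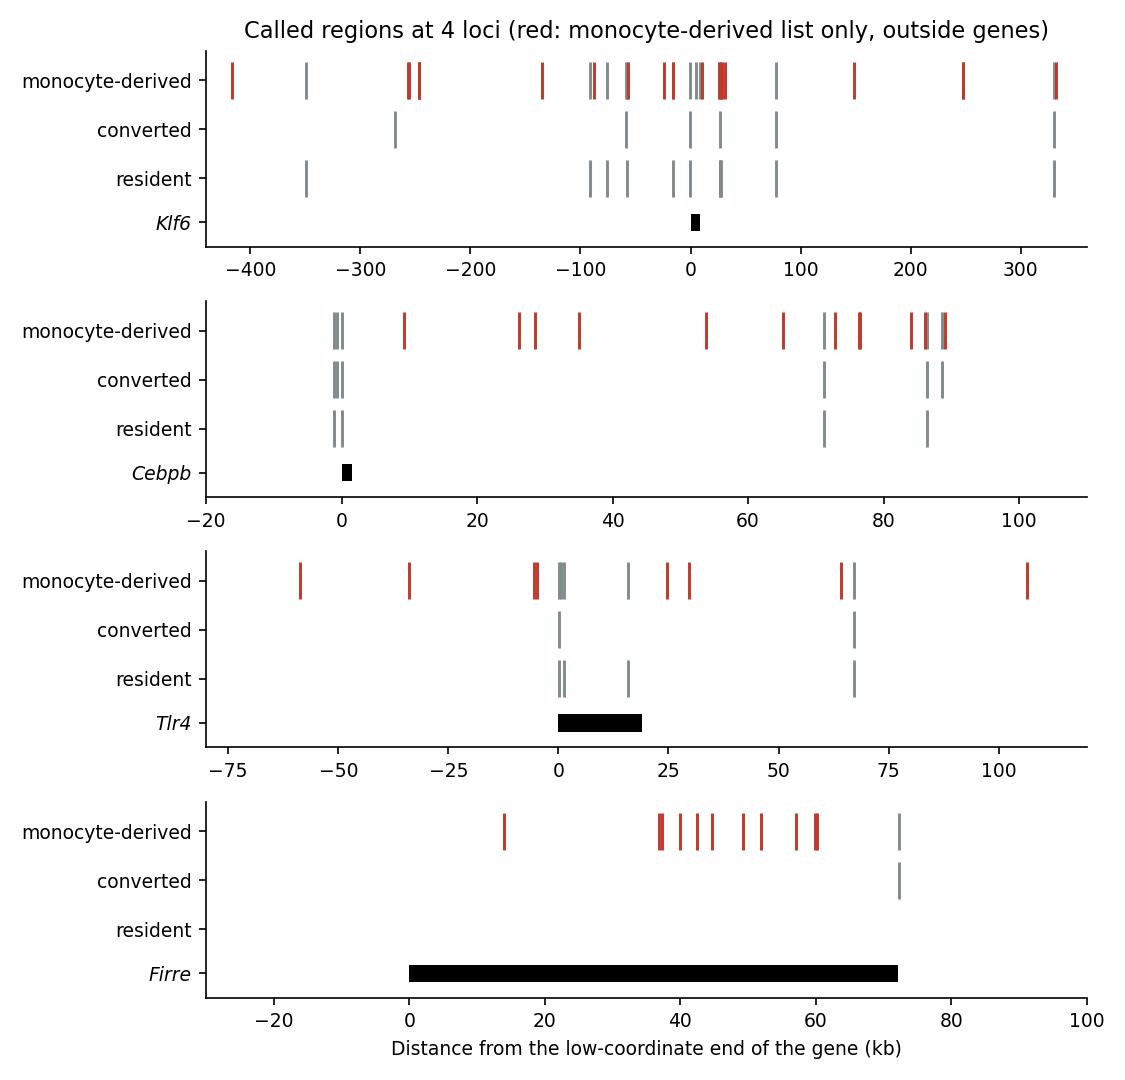
Positions of called regions in each of the 3 lists at Klf6, Cebpb, Tlr4 and the lncRNA gene Firre (x axis, kb from the low-coordinate end of the gene; black bar, gene; red, monocyte-derived-only regions outside genes; grey, all other calls). At Cebpb the red marks lie on one side of the gene, and within Firre the tissue lists have no call, the converted mark lying just beyond its end.

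Tlr4 led the NF-kappaB, Toll-like receptor and interferon list, in which 11 of 28 genes had regions, against 11.9% of all genes. Monocyte-derived-only regions were 52.9% of the 70 outside-gene regions of this list, near the 48.7% over all genes. Tlr4 encodes the receptor for lipopolysaccharide. Of its 13 outside-gene regions 12 were monocyte-derived only and 1 was in all 3 lists. Of the 12, 3 were at 1e-12: chr4:66821814-66822013, 5.54 kb from one end of the gene, and chr4:66852014-66852363 and chr4:66857064-66857288, 5.43 and 10.5 kb from the other. With equal list lengths Tlr4 had 6. Irf2, an interferon regulatory factor gene, had 7 of 10. Nfkbiz, Tnfaip3 and Ifnar1 had 3 each, of 9, 6 and 6. No region was nearest to Rela, Myd88 or Tlr2.

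Of 38 cytokine, chemokine and receptor genes 16 had regions (11.9% over all genes), 41 in all, or 58.6% of the list's 70 outside-gene regions against 48.7% over all genes. Cxcl1 and Cxcl2 encode neutrophil chemoattractants and lie side by side. Cxcl1 had 6 of 7 and Cxcl2 2 of 2, and 5 of the 8 formed a group of 4.55 kb (chr5:90894389-90898938). The group lay in the 10.8 kb between the genes, and no tissue-list region was called within its span. The strongest of the 5, chr5:90897489-90897713, was at 1e-12. A second group of 3, 13.9 to 14.5 kb on the 5′ side of Cxcl1, had p-values of 7.44e-09, 6.73e-06 and 3.38e-06. Cxcr4, a chemokine receptor gene of leukocyte retention, had 8 of 15, Ccr1 5 of 11 and Ccl2, a monocyte chemoattractant gene, 4 of 6. Il10, which encodes an anti-inflammatory cytokine, had 2 of 2 at 1.02 and 13.2 kb, with p of 4.10e-06 and 4.87e-06. Tgfb1 had 2 of 2, one of them at 1e-12 (chr7:25707539-25707913). Ccr2, the receptor by which monocytes leave the marrow, had a single 125 bp region 33.3 kb on its 5′ side (p 4.10e-06). None was nearest to Il1b, Il6, Tnf or Nos2. With equal list lengths 8 of the 38 genes had a region, and Cxcl1 had 2.

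Lipid handling and efferocytosis genes had regions at 12 of 30 genes, against 11.9% of all genes. These made up 31 of the list's 42 outside-gene regions (73.8%, against 48.7% over all genes). That was the highest share among lists with over 10 outside-gene regions. The housekeeping list stood close, with 10 of 14 (71.4%), and the neutrophil list had 3 of 4 (75%), so a high share was not particular to lipid genes. Msr1, the scavenger receptor A gene, had 6 of 6 and Spp1, which encodes osteopontin, 5 of 5. Plin2, of the lipid droplet coat, had 4 of 4 and Fabp5, a fatty acid binding protein gene, 4 of 5. Abca1, the cholesterol exporter gene, had 4 of 8 with 3 of the tissue lists only. The Msr1 and Spp1 regions were short, 75 to 225 bp, and their smallest p were 2.07e-07 and 1.52e-06. None was nearest to Cd36, Apoe, Lpl or Mertk. At equal list lengths 6 of the 30 genes had a region, Msr1 with 2 and Spp1 with 1. Lgals3, the galectin-3 gene, was outside the lists and is named because 2 of its 5 regions were at 1e-12, chr14:47361539-47361938 and chr14:47371689-47372063. No other outside-gene region was nearest to it.

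Alternative activation genes had regions at 14 of 30, against 11.9% of all genes, and these were 56.1% of the list's 66 outside-gene regions, against 48.7% over all genes. Klf4, an IL-4 responsive zinc finger factor gene, had 11 of 17, all on its 5′ side, of which 10 lay 123 to 582 kb away. Myc had 7 of 13, the strongest of them 402 kb away at 7.44e-09. Flt1 had 4 of 6. Il4ra, the IL-4 receptor gene, had 2 of 3 and Tgm2 2 of 2. Arg1, the arginase gene, had none: its 3 outside-gene regions were 2 of all 3 lists and 1 resident only. Irf4, a factor gene of alternative activation, had a single 75 bp region 12520 bp away on the 5′ side (p 4.13e-06). None was nearest to Retnla, Mrc1, Stat6 or Pparg.

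Monocyte and small peritoneal macrophage genes had 11 regions, at 8 of 24 genes (33.3%, against 11.9% of all genes). These were 45.8% of their outside-gene regions, against 48.7% over all genes. Fn1 and Lyz1 had 2 each and Cx3cr1, the gene that drives the Cre, had none. Large peritoneal macrophage genes had 25 at 8 of 27 genes (29.6%, against 11.9% of all genes), 38.5% of their outside-gene regions. Thbs1, a matricellular glycoprotein gene, had 7 of 13 and Prg4, which encodes lubricin, 6 of 6. Gata6, the factor gene of resident peritoneal macrophages, had 5 of 8 at 111 to 267 kb from the gene, beside 2 shared with the resident list and 1 resident only. Within 1 kb of the Gata6 body the monocyte-derived list had 0 calls, the converted list 2 and the resident list 1. At equal list lengths Prg4 and Gata6 had 1 each. Adhesion and motility genes had regions at 14 of 30 (11.9% over all genes), which were 50.0% of their outside-gene regions, near the 48.7% over all genes. Nrp1, the neuropilin 1 gene, led them with 10 of 15. S1P and lipid mediator receptors had regions at 6 of 16 genes (37.5%, against 11.9% of all genes), or 36.8% of their outside-gene regions. Among them Ptger4, a prostaglandin E2 receptor gene, had 5 of 9. MHC class II and antigen presentation genes, taken as 1 list, had regions at 4 of 15 (26.7%, against the same 11.9%), or 50% of their outside-gene regions.

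Lists of other cells and housekeeping genes had regions at 6.67 to 16.7% of their genes, near the background of 11.9%, save the dendritic cell list at 46.7%. Regions were nearest to 3 of 20 T and NK cell genes, 2 of 15 B cell genes, 2 of 15 neutrophil genes, 1 of 15 mast cell and eosinophil genes, 2 of 16 mesothelial and stromal genes and 3 of 18 housekeeping genes. Ywhaz, with 6 of 6, gave most of the 10 housekeeping regions, which were 71.4% of that list's 14 outside-gene regions. Of 15 dendritic cell genes 7 had regions, 17 in all, led by Tcf4 with 6 of 8, Bcl11a with 3 of 4 and Cd24a with 3 of 5. Within 1 kb of the gene bodies, dendritic cell genes had calls at 10 of 15 in the monocyte-derived list (39 regions). There were calls at 5 in the converted list (11) and at 7 in the resident list (17). In that order Tcf4 had 13, 7 and 7, Bcl11a 9, 0 and 1, Flt3 2, 0 and 0, and Zbtb46 3, 1 and 2. Clec9a, Cd209a, Siglech, Kit and Ccr7 had no call in any list. The part of dendritic cells in the regions was not tested. For the other cell types the same sums were at most 8 regions in any list, and the defining genes Ms4a1, Cd3e, Cd3g, Ly6g, Cpa3, Epx, Msln and Upk3b had no call in any list. Other members of these lists did have calls. In the monocyte-derived list there were calls at 5 of 15 B cell genes, among them Cd79a with 1 and Bank1 with 3, and at 4 of 20 T and NK cell genes, namely Cd3d, Cd5 and Gata3 with 1 each and Il7r with 2. Calls also stood there at 3 of 15 neutrophil genes, with Cebpe and Mmp8 at 2 each, at 2 of 15 mast cell and eosinophil genes and at 4 of 16 mesothelial and stromal genes. Macrophage markers had calls at 7 of 8 genes in the monocyte-derived list, at 2 in the converted list and at 5 in the resident list. The converted list was thus lowest for macrophage markers as well as for dendritic cell genes. Of the monocyte markers Cx3cr1 had calls in the monocyte-derived list, while Ccr2, Ly6c2 and Plac8 had none in any list.

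The 104 strongest regions, those at 1e-12, had a median width of 275 bp and fell to 90 nearest genes. The widest, at 600 bp, was chr7:118478889-118479488, 5.62 kb from Itpripl2. Those near Pecr (550 bp), Akap7 (525 bp), Bhlhe40 (525 bp), Tet2 (475 bp) and Wwox (450 bp) followed. The Pecr region touched a tissue-list region end to end. The Akap7 region lay between Arg1 and Akap7, 40.2 kb from Akap7, the nearer gene. Bhlhe40 encodes a helix-loop-helix factor of macrophage proliferation, and its region chr6:108709289-108709813 lay 42.4 kb from the gene and 0.175 kb from the nearest tissue-list region. The Tet2 region chr3:133758389-133758863 was 135 kb from any tissue-list region. A tissue-list region lay within 1 kb of 20 of the 104 (19.2%) and of 668 of the other 4761. Slc7a11, the cystine transporter gene, had the most of them, 4, and is named for that. Its 10 outside-gene regions were 8 monocyte-derived only and 2 shared with the resident list. The 4 lay 116 to 238 kb on its 5′ side, at chr3:50615464-50615713, chr3:50615714-50616113, chr3:50719114-50719513 and chr3:50737264-50737538. Lilrb4a, an inhibitory receptor gene, had 7 of 9 in one group of 15.4 kb, with chr10:51530864-51531113 at 1e-12.

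How many regions count as monocyte-derived only depended on the length of the lists, 33694 monocyte-derived against 24348 resident and 15552 converted peaks. With every list cut to its 15552 strongest peaks there were 1832 such regions, 30.7% of the outside-gene regions, and 1614 of the 4865 (33.2%) overlapped one of them.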

How the data were processed

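The submitters' processing notes name Bowtie2 2.2.9 and the build mm10 (GRCm38) for the ATAC-seq reads of sorted peritoneal macrophages. Not given in the sources used here: the peak caller and its threshold, read shifting, duplicate handling, and how 3 samples became 1 list per group. Each deposited list gives peaks with the authors' p-value, used only to rank peaks within a list; no read counts are in the lists. Edges lie on a 25 bp grid. Regions were merged, classed and placed in Python 3.11.15 with numpy 2.4.6, pandas 2.3.3 and matplotlib 3.10.9, tested on simulated data: for the merging and placing of regions on chromosome 1, 8000 of 8000 simulated regions were recovered. Gene positions, strands and sequences are RefSeq's for GRCm38.p6; strand was known only for genes in its promoter table. Each region went to the protein-coding gene with the nearest end.

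No test between groups was made, since there is 1 list per group. The regions and the 18 gene lists (387 genes, 386 found, without Ighm) were chosen with earlier results of these data known. Named genes were the 15 with the most regions, the 3 leading genes of each list, those nearest to the 12 smallest p-values and the 10 largest groups, and 14 fixed genes; some of these are not reported here, and others are said to be chosen after their values. Motifs in the regions at large were not analysed here, since no genome was used. RNA-seq was not analysed here.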

Additional observations from a re-analysis of the deposited data

How the results depend on the processing

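No paired analysis was possible because a group is a single merged list without replicate numbers, and for this reason no replicate was left out. The motif comparison over whole regions and its window alternative were not run without a genome. Depth is unknown and limits every absence of a call, and the list lengths differ, so the size of the monocyte-derived-only class cannot be told apart from the depth of its list.

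Main values were 4865 regions, 48.7% of outside-gene regions, a median of 22.7 kb to a gene end, a median width of 125 bp, 43.6% with another such region within 10 kb, 42.6% with a tissue-list region within 10 kb, a 5′ side difference of 6.24 points, 2583 genes and 22 of 30 lineage factor genes. With equal list lengths there were 1832 regions, 30.7% of outside-gene regions, 150 bp wide, 22.7% near another, 40.5% near a tissue-list region, at 1317 genes. With the monocyte-derived list alone cut to that length, an alternative chosen after seeing the data, there were 1626, 23.8%, 150 bp wide, 19.7% near another, at 1203 genes. With p at most 1e-10 in every list there were 613, 58.2%, 300 bp wide, 17.1% near another, 12.4% near a tissue-list region, with a 5′ side difference of 11.9 points, at 498 genes and 9 lineage factor genes. Only 104 of the 4865 (2.14%) overlapped one of these 613, so most of the 613 are other regions, since the limit also drops weaker tissue peaks. It also sets p-values of different lists side by side, although they rank peaks within a list only. With p at most 1e-05 in every list the share was 51.7% and 41.1% lay near a tissue-list region; with that limit on the monocyte-derived list alone the share was 47.4%. Requiring 50% overlap of the shorter peak gave 44.3% near a tissue-list region. Merging within 200 bp gave a share of 47.5%, 32.5% near another and 38.2% near a tissue-list region. A margin of 2.5 kb gave 26.5 kb and 41.0% near a tissue-list region. A margin of 10 kb gave a share of 47.0%, 42.2 kb, 35.1% near a tissue-list region and 1702 genes. Keeping clear of every annotated gene gave 9.43 kb, 39.8% near another, 1216 genes and 8 lineage factor genes. The limits on p and the cuts keep fewer peaks and the margins fewer regions by construction; the cause of other shifts was not tested. Under these alternatives the 5′ side difference ran from 4.02 to 11.9 points and, where windows were left, the AP-1 difference from 5.59 to 14.8 points, each positive throughout. Some of these AP-1 values rest on few windows. There were 28 against 23 at p at most 1e-10, 43 against 61 at equal list lengths and 33 against 76 with the monocyte-derived list cut alone. No interval is given for them and the settings draw on overlapping sets of regions, so the constant sign adds no separate evidence. The other 54 values of this kind stayed within 1.5 times the main count or within the 95% interval of the main value, a wide allowance for counts: it takes in 3366 regions at a margin of 10 kb, 3508 clear of every annotated gene, and 18 lineage factor genes. By the same limits 482 of 1148 values for single genes, lists and motifs moved. Among 88 named genes the count moved for 77 at equal list lengths and for 9 at a margin of 2.5 kb. It moved for 48 of the 88 when regions within 100 kb of the gene body were counted in place of those with the nearest end.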
